A study of Mus musculus with 3 samples.

Results

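The matricellular and interstitial matrix proteins described here were Postn, Sparcl1, Sparc, Fn1, Tnc, Fbn1, Lum, Dcn, Ogn and Eln, 10 named genes among the 27745 gene names on the array. Every probe that was not a control and carried one of these names was taken, which gave 19 probes among 41174, with 1 probe for 4 of the genes and several for the other 6. Kidney rudiments of C57BL/6 mouse embryos at E12.5, when the first nephrons begin to form, were compared between Fgfrl1-/- embryos and their wildtype littermates on 3 two-colour oligonucleotide arrays, each holding 1 Fgfrl1-/- pool and 1 wildtype pool of 6 to 9 rudiments. The targeted gene encodes a transmembrane relative of the Fgf receptors, and it had been inactivated by targeting, with no tissue-restricted Cre named. Each array value is therefore an average over several embryos and over all cells of the rudiment, and fewer cells of a type and less RNA per cell cannot be told apart.

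The Fgfrl1-/- RNA carried Cy3 and the wildtype RNA Cy5 on all 3 arrays, with 0 dye swaps, so dye and genotype cannot be told apart. Arrays 2 and 3 were hybridized on the same slide, and array 1 on a different one. Over 41158 probes, r between their log2 ratios was 0.71 for arrays 2 and 3, 0.11 for arrays 1 and 2 and 0.22 for arrays 1 and 3, a correlation across probes that are no independent replicates. The Fgfrl1 probe had log2 ratios of -1.21, -1.51 and -1.83 on arrays 1, 2 and 3 (adjusted p = 0.0332) and was lower in the Fgfrl1-/- pool on every array, although it stayed above background in all pools. Where this probe lies relative to the targeted part of the gene is not given in the sources used here. The share of probes well above background lay between 57.1% and 80.2% in the Fgfrl1-/- channel and between 60.9% and 65.0% in the wildtype channel.

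The extracellular matrix between cells is built from fibrous and adhesive proteins, among them fibronectin, the elastic fibre proteins and the small leucine-rich proteoglycans that bind collagen. Matricellular proteins such as periostin, Sparc and the tenascins are secreted into the same space but act mainly as modulators of adhesion and growth factor signalling and less as structural parts. In the embryonic kidney the interstitial stroma is a main source of such proteins, while the condensing mesenchyme gives up its fibronectin-rich matrix as it turns into epithelium.

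The comparisons turn on short stretches of these transcripts. The oligonucleotides are printed 5′ to 3′ as listed for the array, with their positions on the mouse genome build mm8. The first 30 bases are given for the probes that passed the test, for the Dcn probe that came next to them, and for the Fn1 probes A_52_P11817 and A_52_P237357. All 60 bases are given for the probes of Fn1 and Sparc whose genomic span exceeds the probe length, so that they read across a splice junction of the mature transcript.
Postn A_51_P489192, chr3:54478490-54478549, plus strand: gattaaagtagaatccaccaaagaacatca
Sparcl1 A_52_P64356, chr5:104319432-104319491, minus strand: agtgagatactgctcttttgagataaatat
Sparcl1 A_51_P210510, chr5:104319553-104319612, minus strand: tctggggacagttagccaccatggcaatgt
Dcn A_51_P334104, chr10:96947287-96947346, plus strand: aacaccttcagatgtgtctatgtgcgttct
Fn1 A_51_P100856, chr1:71524056-71526293, minus strand: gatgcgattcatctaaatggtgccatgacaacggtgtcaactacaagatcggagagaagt
Fn1 A_52_P11817, chr1:71530761-71530820, minus strand: ctggcacaacccaccagcaacccagtgttg
Fn1 A_52_P237357, chr1:71537324-71537383, minus strand: gtctacataccttacacacacttgtgtctt
Fn1 A_52_P299974, chr1:71560522-71561280, minus strand: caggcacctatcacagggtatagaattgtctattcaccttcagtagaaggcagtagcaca
Sparc A_52_P101852, chr11:55239370-55242027, minus strand: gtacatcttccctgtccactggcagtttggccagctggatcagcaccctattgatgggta

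Of the 19 probes, 4 span a junction in this way (21.1%), against 12.3% of the 40869 probes with a position on the array. The median GC content of the member probes was 38.3%, and that of all probes that were not controls 40%.

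On the arrays Postn was 2.06-fold and Sparcl1, at its brightest probe, 2.05-fold higher in the Fgfrl1-/- rudiments than in wildtype. The other 8 genes did not pass the test. Neither Postn nor Sparcl1 was among the genes that the study measured by quantitative PCR. Of the genes higher on its arrays, it measured Tcfcp2l1, Cxcl12 and Col1a1, which were not higher in Fgfrl1-/- by quantitative PCR at E12.5. By the moderated test of limma with Benjamini-Hochberg adjustment over all 41174 probes, 3 member probes were called higher at an adjusted p below 0.05, where 0.289% of all probes were called higher. By the same test 0 member probes were called lower, where 0.398% of all probes were, and the 7 member probes with an unadjusted p below 0.05 all had a higher level in Fgfrl1-/-, as did 7.69% of all probes. Taking each gene by its brightest probe, 2 of 10 genes were called higher, against 0.342% of all genes. Expressed as Fgfrl1-/- over wildtype, the log2 ratio exceeded 0 on all 3 arrays for 8 of the 19 probes, where 19.1% of all probes were, and below 0 on all 3 for 1 probe, where 19.3% were. For 4 probes all Fgfrl1-/- levels lay above all wildtype levels, a pattern found for 6.76% of all probes, and for 0 the reverse held, which 7.18% of all probes showed.

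**Figure D1:**
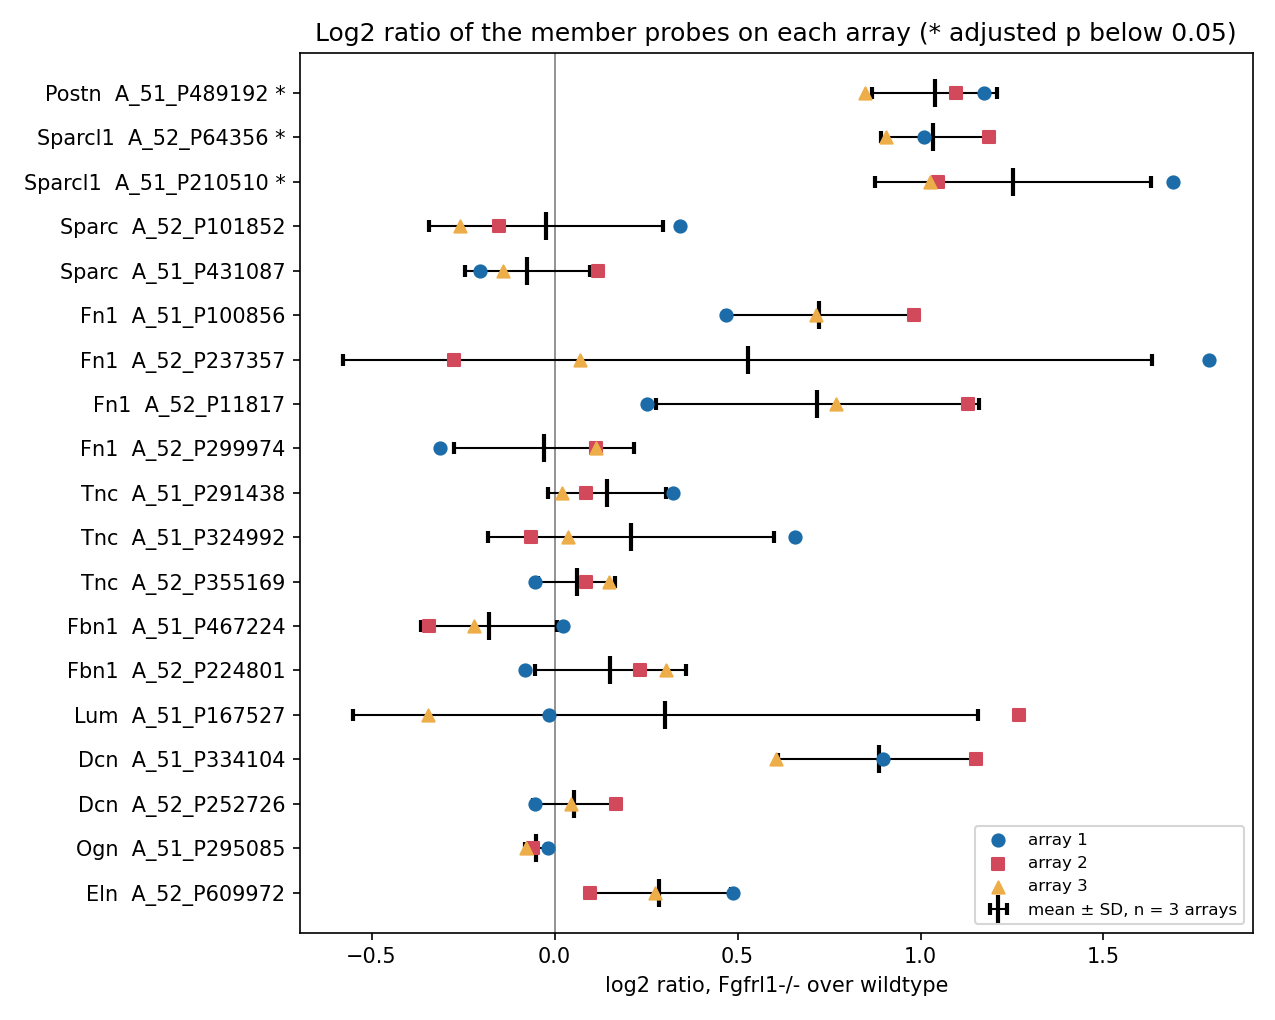
Log2 ratio of Fgfrl1-/- over wildtype (x axis) for the 19 probes of the 10 matrix genes (y axis). Coloured points are the 3 arrays, black bars the mean ± SD (n = 3), and an asterisk marks an adjusted p below 0.05. The probes of Postn and Sparcl1, the Dcn probe A_51_P334104 and the Fn1 probes A_51_P100856 and A_52_P11817 lie to the right of 0 on every array, whereas Lum and Fn1 A_52_P237357 are spread from below 0 to above 1.2.

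Postn encodes periostin, a matricellular protein of mesenchymal and fibroblastic cells that binds integrins and collagen. Its normalized log2 level was 12.92, 12.31 and 12.03 in Fgfrl1-/- (arrays 1, 2 and 3) against 11.74, 11.21 and 11.18 in wildtype. All Fgfrl1-/- pools were above all wildtype pools. The log2 ratio was 1.17, 1.1 and 0.85 on the 3 arrays, with a mean of 1.04 ± 0.17 (SD, n = 3), a 2.06-fold higher level (adjusted p = 0.0336). It was 1.17 on the slide of array 1 and averaged 0.97 on the slide of arrays 2 and 3.

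The difference in Postn depends on how the dyes are balanced. The raw median intensities were 6073 in Fgfrl1-/- and 2536 in wildtype on array 1, 3468 and 3960 on array 2, and 4133 and 3426 on array 3. Before normalization the Fgfrl1-/- channel was thus the brighter on arrays 1 and 3 and the dimmer on array 2. When each array was only centred on its median, the log2 ratio of Postn was 1.18, 0.30 and 0.58, with a mean of 0.69 that did not pass the test (adjusted p = 0.202). The 2848 probes at least as bright as that of Postn then had median log2 ratios of -0.04, -0.88 and -0.35, and Postn stayed above this median on each array. Loess adjusts for brightness in much the same way, so this comparison is no separate reading of Postn.

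Sparcl1 encodes hevin, an acidic secreted glycoprotein related to Sparc that lowers cell adhesion. Its probe A_52_P64356 had log2 levels of 13.77, 13.06 and 12.90 in the Fgfrl1-/- pools and 12.76, 11.88 and 11.99 in the wildtype pools. The lowest Fgfrl1-/- level lay above the highest wildtype level. The log2 ratio was 1.01, 1.19 and 0.91, with a mean of 1.03 ± 0.14 (SD, n = 3), a 2.05-fold higher level (adjusted p = 0.0327). On the slide of arrays 2 and 3 it averaged 1.05.

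The other Sparcl1 probe, A_51_P210510, lies 61 bases from the first on the same chromosome and reads the same transcript, so the pair are not independent measurements of the gene. Its log2 levels were 12.48, 12.38 and 12.24 in Fgfrl1-/- and 10.79, 11.33 and 11.22 in wildtype. The Fgfrl1-/- pools lay close together and above all wildtype pools. The log2 ratio was 1.69, 1.05 and 1.03, with a mean of 1.25 ± 0.38 (SD, n = 3), a 2.38-fold higher level (adjusted p = 0.0432). Both probes were close to 1 on arrays 2 and 3 and parted on array 1. With median centring alone the mean log2 ratios were 0.63 and 0.91, and neither passed the test.

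Only 14 of all probes, or 0.034%, had a mean log2 ratio of at least 1, and 3 of them were the Postn probe and both Sparcl1 probes. Sorted from the highest log2 ratio down, Sparcl1 A_51_P210510 held rank 2, Postn rank 10 and Sparcl1 A_52_P64356 rank 11 of all probes. This count and these ranks hold for normexp background correction with offset 50 and loess. Whether they depend on the offset or on the normalization was not tested. The 3 calls were lost when array 2 or array 3 was left out. Without array 2 the adjusted p-values of these probes lay between 0.29 and 0.295, and without array 3 between 0.45 and 0.471, while the log2 ratios stayed between 0.96 and 1.37. In each of these fits 0 of 41160 probes were called by limma, with 3711 and 3141 at an unadjusted p below 0.05.

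**Figure D2:**
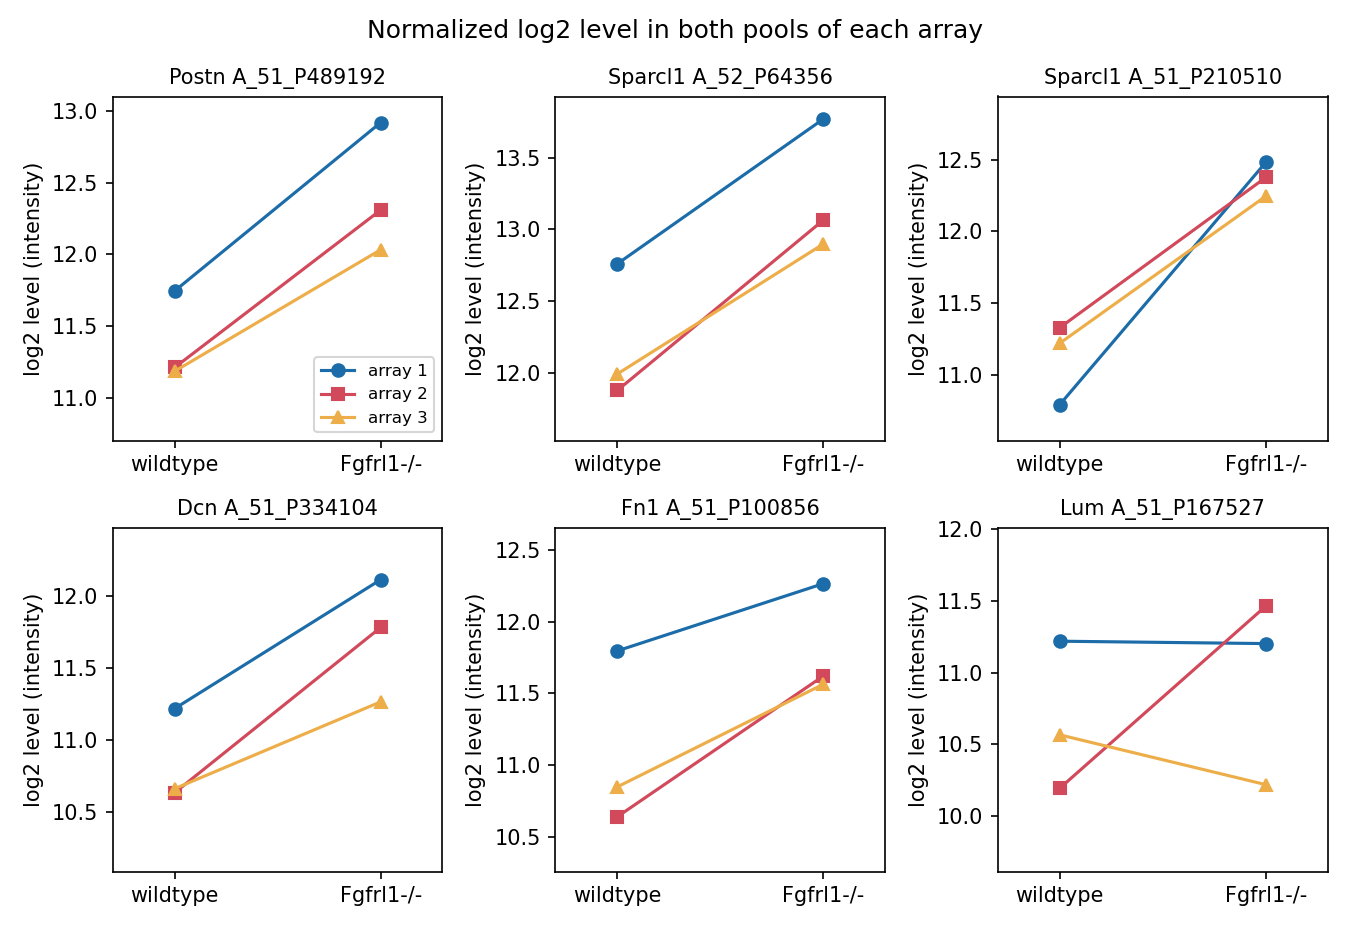
Normalized log2 level (intensity, y axis, the same span of 2.4 in each panel) in the wildtype and the Fgfrl1-/- pool of each array (x axis) for 6 probes, with a line joining both pools of an array. For Postn, both Sparcl1 probes and Dcn every Fgfrl1-/- pool lies above every wildtype pool, for Fn1 the pools overlap, and for Lum the line runs upward on array 2 alone.

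Sparc itself, also called osteonectin, the better known collagen-binding relative of Sparcl1, was measured by 2 bright probes that did not differ beyond the spread between arrays. The log2 ratio of A_52_P101852 was 0.34, -0.15 and -0.26 on the 3 arrays, with a mean of -0.02 ± 0.32 (SD, n = 3, adjusted p = 0.964). That of A_51_P431087 was -0.20, 0.12 and -0.14, with a mean of -0.07 ± 0.17 (SD, n = 3, adjusted p = 0.773). The probes had opposite signs on arrays 1 and 2 and the same sign on array 3. When the arrays were only centred on their median, the means were -0.45 for A_52_P101852 and -0.47 for A_51_P431087. Neither was called by limma in that fit (adjusted p = 0.586 and 0.398). Probe A_51_P431087 was then below 0 on every array, and A_52_P101852 was 0.27, -1.02 and -0.59.

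Tnc encodes tenascin C, a large matricellular protein that opposes adhesion to fibronectin. Its brightest probe, A_51_P291438, had log2 ratios of 0.32, 0.09 and 0.02, with a mean of 0.14 ± 0.16 (SD, n = 3, adjusted p = 0.517). Probe A_51_P324992 gave 0.66, -0.07 and 0.04 (adjusted p = 0.594) and was well above background in the Fgfrl1-/- pool on 2 of 3 arrays. Both were highest on array 1. The third Tnc probe, A_52_P355169, was not well above background in any wildtype pool and was so in 1 Fgfrl1-/- pool, so that no fold is given (adjusted p = 0.788).

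Fn1 encodes fibronectin, the adhesive glycoprotein onto which cells first assemble an interstitial matrix. It had 4 probes, spread over 36.5 kb of the gene, and they disagreed. None passed the test. The 2 probes nearest the 3′ end of the gene were higher in Fgfrl1-/- on all 3 arrays, and the 2 farther upstream were not.

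The 3′-most Fn1 probe, A_51_P100856, was printed in 10 spots on each array. Its log2 levels were 12.27, 11.62 and 11.56 in Fgfrl1-/- and 11.80, 10.64 and 10.85 in wildtype. The wildtype pool of array 1 lay above the Fgfrl1-/- pools of arrays 2 and 3, so that the groups overlapped even though the Fgfrl1-/- pool was the higher on each array. The log2 ratio was 0.47, 0.98 and 0.72, with a mean of 0.72 ± 0.26 (SD, n = 3, adjusted p = 0.0694), a 1.65-fold difference. The SD over the 10 spots was 0.29, 0.09 and 0.08 on arrays 1, 2 and 3. On arrays 2 and 3 the spots therefore varied by less than the arrays did, and on array 1 by slightly more.

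Probe A_52_P11817, 6.71 kb upstream of it, had log2 ratios of 0.25, 1.13 and 0.77, with a mean of 0.72 ± 0.44 (SD, n = 3, adjusted p = 0.126). It followed the 3′-most probe in order, with array 2 highest and array 1 lowest. Probe A_52_P237357, 13.3 kb upstream, gave 1.79, -0.27 and 0.07, with a mean of 0.53 ± 1.11 (SD, n = 3, adjusted p = 0.603). This probe stood high on array 1 alone. Its annotation on the array names a complementary DNA clone with a warning that the clone may be chimeric, and its sequence was not drawn from a RefSeq transcript, as those of the other Fn1 probes were. Such a warning stands on 28 of the 41174 probes. The dim probe A_52_P299974, 36.5 kb upstream, gave -0.31, 0.11 and 0.11, with a mean of -0.03 ± 0.25 (SD, n = 3, adjusted p = 0.942). Its raw median intensities lay between 49 and 123.5, and the mean turned to 0.07 when the arrays were only centred on their median.

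**Figure D3:**
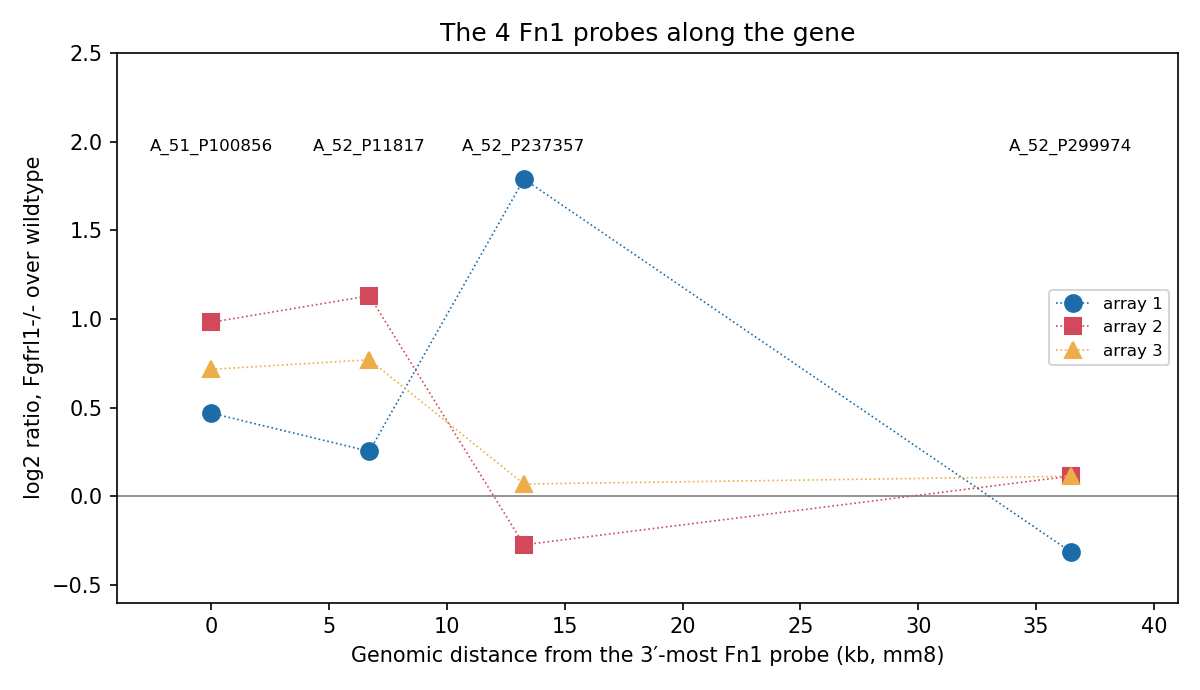
Log2 ratio of Fgfrl1-/- over wildtype (y axis) of the 4 Fn1 probes against their genomic distance from the 3′-most probe in kb on mm8 (x axis). Points are the 3 arrays, and dotted lines join the probes of an array. The first 2 probes are above 0 on every array, the third reaches 1.79 on array 1 and lies near or below 0.07 on the others, and the last stays between -0.31 and 0.11.

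Fbn1 encodes fibrillin 1, the main building block of microfibrils, and Eln encodes elastin, the core of the elastic fibre laid on them. The brighter Fbn1 probe, A_51_P467224, had log2 ratios of 0.02, -0.34 and -0.22, with a mean of -0.18 ± 0.19 (SD, n = 3, adjusted p = 0.441). The other, A_52_P224801, 527 bases upstream, had -0.08, 0.23 and 0.31, with a mean of 0.15 ± 0.21 (SD, n = 3, adjusted p = 0.541). The probes ran in opposite directions on every array. Eln had log2 ratios of 0.49, 0.10 and 0.27, with a mean of 0.29 ± 0.20 (SD, n = 3). It was the higher in Fgfrl1-/- on all 3 arrays and reached an unadjusted p of 0.0272, but not the threshold after adjustment (adjusted p = 0.237).

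Decorin, lumican and osteoglycin, encoded by Dcn, Lum and Ogn, are small leucine-rich proteoglycans that bind collagen fibrils. Dcn came nearest to the threshold of the genes that did not pass. Its probe A_51_P334104 had log2 levels of 12.12, 11.78 and 11.26 in Fgfrl1-/- and 11.22, 10.63 and 10.66 in wildtype. The groups did not overlap, although the Fgfrl1-/- pool of array 3 and the wildtype pool of array 1 were separated by little. The log2 ratio was 0.90, 1.15 and 0.61, with a mean of 0.89 ± 0.27 (SD, n = 3), a 1.85-fold difference (adjusted p = 0.0527). A fit with both a brightness trend in the variance and robust empirical Bayes brought it to an adjusted p of 0.0402, and fitting only the brightest probe of each gene to 0.0488. Its other probe, A_52_P252726, lies 36.9 kb away on the upstream side and was drawn from a clone annotated as unclassifiable. It was well above background in 0 wildtype pools and 1 Fgfrl1-/- pool, so that no fold is given (adjusted p = 0.822).

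Lum and Ogn did not pass the test. The log2 level of Lum was 11.20, 11.46 and 10.22 in the Fgfrl1-/- pools and 11.22, 10.19 and 10.57 in the wildtype pools, so that the groups overlapped. The log2 ratio was -0.02, 1.27 and -0.35, with a mean of 0.30 ± 0.85 (SD, n = 3, adjusted p = 0.722). Array 2 alone gave the positive mean, which was -0.18 without it. On the same array the skeletal muscle myosin gene Myh3, the highest of its list there, had a log2 ratio of 1.88, against -0.06 and 0.48 on arrays 1 and 3. The median of all 12 skeletal muscle markers was 0.26 on array 2, against -0.13 and 0.03. That of 6 mesothelial and coelomic markers was 0.70, against 0.04 and -0.05. Their part in the value of Lum was not tested. Ogn lay slightly below 0 on every array, with log2 ratios of -0.02, -0.06 and -0.08, averaging -0.05 ± 0.03 (SD, n = 3, adjusted p = 0.796).

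The number of probes called changed most when array 1 was left out. Without it, limma called 8 of the 19 probes, 7 higher and 1 lower, against 8.49% of all probes called higher and 10.1% called lower in that fit. The probes added to the 3 of Postn and Sparcl1 were Dcn A_51_P334104, with a mean log2 ratio of 0.88 (adjusted p = 0.000163), Fn1 A_51_P100856 and A_52_P11817, with 0.85 and 0.95, and both Fbn1 probes. Fbn1 was then called in both directions, with -0.28 for A_51_P467224 (adjusted p = 0.0199) and 0.27 for A_52_P224801 (adjusted p = 0.0226). Arrays 2 and 3 shared a slide, and the slide and the version of the image software differed from those of array 1, so that array, slide and software cannot be told apart.

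Beside other genes of the matrix, the 10 members had a median log2 ratio of 0.29 over their brightest probes, and all 27745 genes one of 0.01. By limma, 0.342% of all 27745 genes were called higher and 0.483% lower. At an unadjusted p below 0.05, 2395 were higher and 2211 lower. Of 23 other matricellular genes 2 rose and 0 fell, with 9 higher and 1 lower at an unadjusted p below 0.05 and a median of 0.02. These were Smoc2, which encodes a Sparc-related modular protein and had a log2 ratio of 0.95 ± 0.19 (SD, n = 3, adjusted p = 0.0385), and the thrombospondin gene Thbs3, with 0.67 ± 0.12 (SD, n = 3, adjusted p = 0.0432). Of 18 other elastic fibre and microfibril genes 2 rose and 0 fell, with 7 higher and 2 lower at an unadjusted p below 0.05 and a median of 0.15. These were Ltbp3, whose product tethers latent Tgf-beta to the matrix, with 0.78 (adjusted p = 0.0442), and the fibulin gene Efemp1, with 0.66 (adjusted p = 0.0439). Of 11 other small leucine-rich proteoglycan genes 0 were called by limma, with 0 higher and 1 lower at an unadjusted p below 0.05 and a median of 0.04, and their largest log2 ratios were -0.41 for Epyc and 0.26 for Fmod.

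Among 22 genes of matrix receptors 1 rose and 1 fell, where 0.342% of all genes were called higher and 0.483% lower. At an unadjusted p below 0.05 by limma, 6 receptor genes were higher and 2 lower, and the list median was 0.05. The integrin subunit genes Itga4 and Itga8, whose products both pair with the beta 1 subunit and can bind fibronectin, had log2 ratios of 0.65, with 0.69, 0.65 and 0.60 on the 3 arrays (adjusted p = 0.0408), and -0.78, with -0.71, -0.80 and -0.82 (adjusted p = 0.0346). Both varied little from array to array. When the arrays were only centred on their median, the medians of the elastic fibre genes and of the receptors turned to -0.05 and -0.02, that of the members was 0.21, and 0 of the 10 members were called. In that fit 0 genes of the other matrix, receptor, stroma and macrophage lists were called higher, so that the calls of Smoc2, Thbs3, Ltbp3, Efemp1, Itga4, Pdgfra and C1qa were all lost. The 4 calls of other matricellular and elastic fibre genes were also lost with offset 0 in the background correction, with the scanner software's ratios, with quantile scaling between arrays and in the authors' table, and those of the elastic fibre genes also without background subtraction.

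Stroma and macrophage markers held 1 call each, where 0.342% of all genes were called higher. Of 14 stroma markers 1 rose, the growth factor receptor gene Pdgfra with a log2 ratio of 1.02 ± 0.09 (SD, n = 3, adjusted p = 0.0274), and 0 fell. The stromal transcription factor gene Foxd1 had 0.90 (adjusted p = 0.057) and the collagen gene Col1a2 0.61 (adjusted p = 0.161). At an unadjusted p below 0.05, 8 stroma markers were higher and 1 was lower, against 2395 and 2211 of all 27745 genes. The lowest log2 ratios, of genes chosen after their values were seen, were -0.48 for Tcf21, -0.25 for Pdgfrb and -0.15 for Tbx18. The list had a median of 0.39, which turned to -0.03 with median centring alone, and its summed level ranged from 175582 to 203396 in the Fgfrl1-/- pools and from 128703 to 143371 in the wildtype pools. Of 8 macrophage markers 1 rose, the complement gene C1qa with 0.65 (adjusted p = 0.0432), and all 8 were higher at an unadjusted p below 0.05. Their median was 0.55, and their summed level ranged from 4772 to 8729 in Fgfrl1-/- and from 3431 to 4545 in wildtype. The part of stromal and macrophage RNA in the values of Postn, Sparcl1, Dcn and Fn1 was not tested. All 14 stroma markers and all 8 macrophage markers were well above background in every pool.

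**Figure D4:**
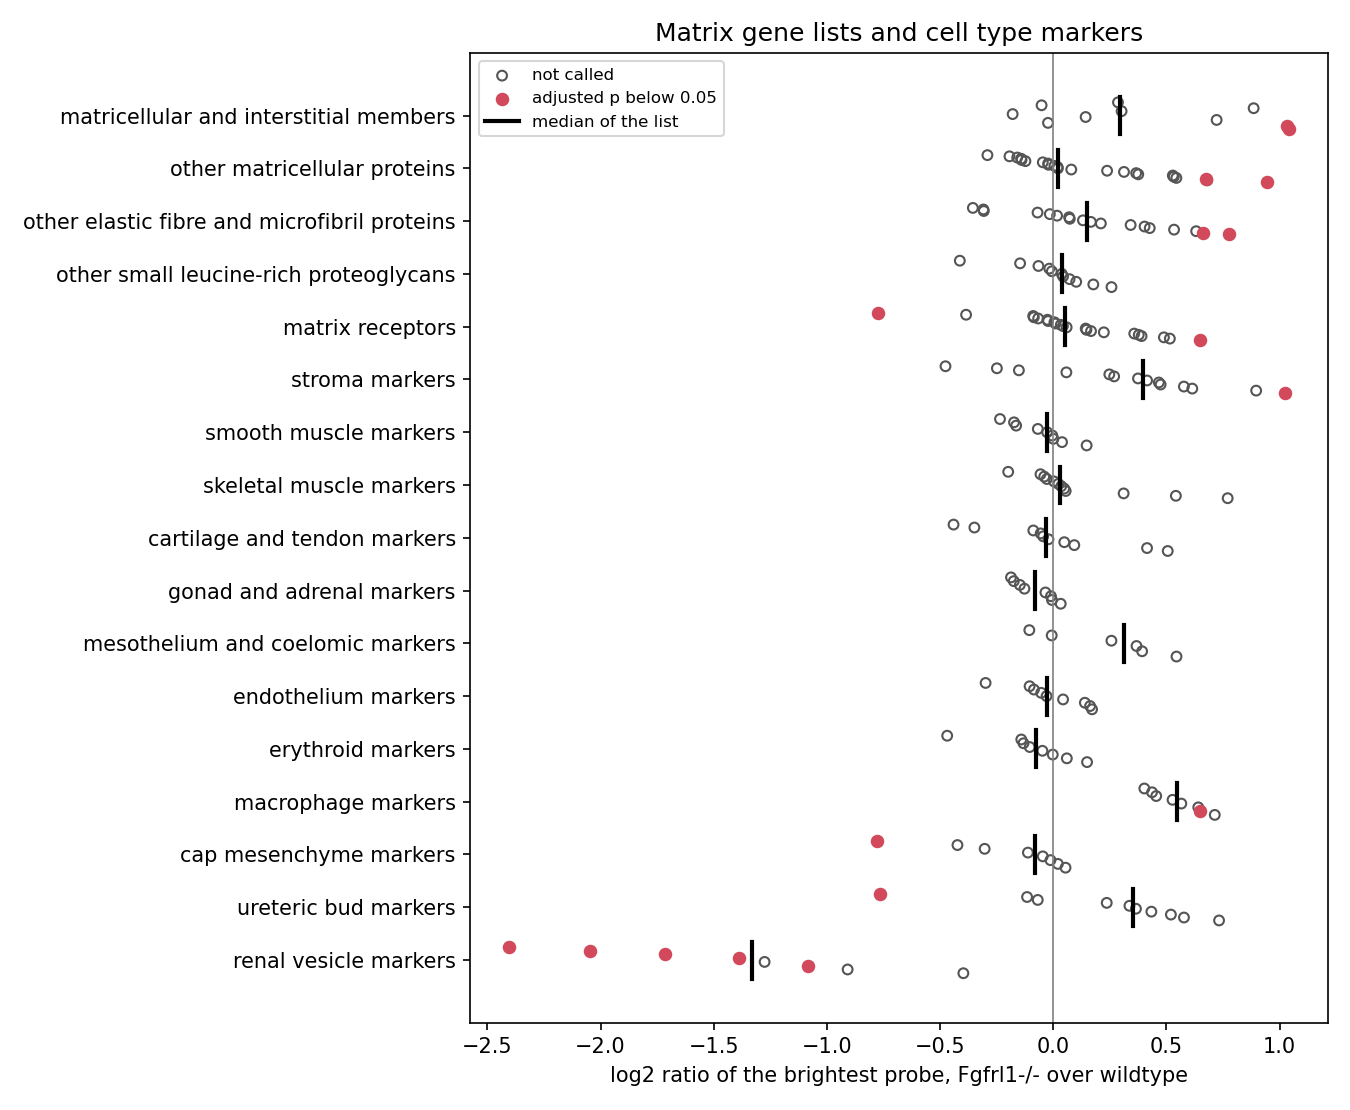
Log2 ratio (Fgfrl1-/- over wildtype, x axis) of the brightest probe for each gene of the 10 members, the other matrix lists and the cell type marker lists (y axis). Filled points have an adjusted p below 0.05, and vertical bars are list medians, 0.29 for the members, 0.39 for stroma markers and 0.55 for macrophage markers, where median centring without loess gave 0.21, -0.03 and 0.42.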

How the data were processed

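Agilent Feature Extraction had turned the scans into spot values, per the file headers in version 9.5.3.1 (array 1) or 10.5.1.1 (the other arrays), where the submitters' processing notes name version 10. The deposited files hold raw median intensities of spot and local background, flags and the log10 ratio of Cy5 over Cy3. A further table, made by the authors and deposited as log2 ratios, came from R and Bioconductor, and its scale and centring are not given in the sources used here. Its direction, Fgfrl1-/- over wildtype, follows from correlations of 0.70 to 0.72 with the sign-turned scanner ratios, and its column medians were -0.02, 0 and 0.003.

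From the raw intensities, log2 ratios were computed in limma 3.58.1 (R 4.3.3) with normexp background correction (offset 50) and loess within arrays, without the 1639 control spots and the 107 to 138 spots flagged as outliers per array. No spot was saturated (0 of 43379). Spots of a probe were averaged. Each probe was tested by an intercept-only fit with empirical Bayes, 2-sided, with Benjamini-Hochberg adjustment at 0.05. Levels per channel came from quantile scaling of average intensities. A gene was represented by its brightest probe. The 3 arrays limit the precision. The p-values rest on the spread of the log2 ratios between arrays, with a variance moderated over all probes. A dye effect common to all 3 arrays is no part of this spread. The script was tested on simulated data.

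Gene names and positions were taken from the file of array 1, on mm8, and joined by probe. Whether a probe lies in coding sequence or a UTR is not given there. The number shared by both pools of an array pairs them on 1 array, and the ratio is the paired value. Dissection was in parallel per the study's methods.

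The members and lists were chosen with earlier results of these data known. All members were named with all probes, and of each other list up to 4 called genes with the largest log2 ratios, or up to 2 genes as values where fewer than 2 passed. Alternatives changed background correction, normalization, filters, variance model, the way the pools were paired, slide and arrays. The values of single members in the fit of brightest probes alone were added after seeing the data.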

Additional observations from a re-analysis of the deposited data

How the results depend on the processing

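The log2 ratios of Postn and of both Sparcl1 probes stayed above 0 under every other setting run on them (12 for Postn and A_52_P64356, 11 for A_51_P210510) and without each array, between 0.69 and 1.07 for Postn, 0.63 and 1.18 for A_52_P64356 and 0.91 and 1.36 for A_51_P210510 under the other settings. The calls were less stable. Member probes called fell from 3 to 0 with offset 0, with the scanner software's ratios, with median centring, with the authors' table and with 1 value per slide, and ranged from 0 to 8 without 1 array each. At an unadjusted p below 0.05 these 5 settings gave 6 or 7 member probes, as against 7. Among all probes they gave 3449 to 6118, as against 6541. Members called by brightest probe fell from 2 to 0 under the same 5 settings and to 1 in the separate-channel fit, and ranged from 0 to 5 without 1 array each. The separate-channel fit tied both pools of an array by 1 estimated correlation of 0.45 and not by their ratio, so it was not an unpaired fit. It gave an adjusted p of 0.0687 for Sparcl1 A_52_P64356 and changed no other call of a member probe. Adjusted p-values over all settings ranged from 0.0219 to 0.381 for Postn, leaving aside the fits without an array. The call of Sparcl1 A_51_P210510 was also lost with quantile scaling (adjusted p = 0.0646) and without dim probes (adjusted p = 0.055), where 2 member probes were called. Genes called in the other lists went from 15 to 0 with offset 0, to 0 with the scanner's ratios and to 8 with median centring, 0 of these higher. Among all probes, 283 were called (119 higher, 164 lower), against 0 with offset 0, 0 with the scanner's ratios, 0 with 1 value per slide, 93 with median centring (2 higher, 91 lower), 82 with quantile scaling (22 higher, 60 lower), 75 without dim probes (18 higher, 57 lower), 463 in the separate-channel fit, 36 in the authors' table (4 higher, 32 lower) and 7666 without array 1. Signs turned only for values near 0 or set by 1 array. With the scanner's ratios Sparc A_52_P101852 came to 0.069 and A_51_P431087 to 0.039, with median centring Fn1 A_52_P299974 to 0.075, and with 1 value per slide Sparc A_52_P101852 to 0.068. Without 1 array each, Sparc A_52_P101852 ranged from -0.21 to 0.094, Fn1 A_52_P237357 from -0.10 to 0.93, Fn1 A_52_P299974 from -0.10 to 0.11, Tnc A_51_P324992 from -0.014 to 0.35, Lum from -0.18 to 0.63 and Dcn A_52_P252726 from -0.0050 to 0.11. The causes were not tested. Mean signals were not run, since arrays 2 and 3 list none, and slide as a random block could not be fitted.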

Other observations

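Marker lists of other cell types of the rudiment and of its surroundings were read on the same arrays. Limma called 0 of 9 smooth muscle, 12 skeletal muscle, 10 cartilage and tendon, 8 gonad and adrenal, 6 mesothelial, 9 endothelial and 8 erythroid markers, with 0, 1, 2, 0, 1, 0 and 0 higher and 0, 0, 2, 0, 0, 1 and 1 lower at an unadjusted p below 0.05. Of all 27745 genes, 2395 were higher and 2211 lower at that threshold. The cartilage and tendon markers had a median log2 ratio of -0.03. Their highest was that of the tendon transcription factor gene Scx, with 0.51, 0.47 and 0.54 on the 3 arrays (adjusted p = 0.0552). Their lowest was that of Hapln1, with -0.80, -0.28 and -0.24 (adjusted p = 0.188). Msln, which encodes mesothelin, had 0.29, 0.83 and 0.51 (adjusted p = 0.108). Of 8 cap mesenchyme markers, 1 fell, Cited1 with -0.78 (adjusted p = 0.0442), where 0.483% of all genes were called lower. At an unadjusted p below 0.05, 0 were higher and 3 lower. Median centring also called 1 cap mesenchyme marker lower. The calls in this list went to 0 without background subtraction, with offset 0, with the scanner's ratios, with quantile scaling and in the authors' table. Of 8 renal vesicle markers 5 fell, with a list median of -1.33. Most of these 8 genes were listed by the study as reduced on the same arrays, so their fall is no independent reading. Of 10 ureteric bud markers 1 fell, the tip gene Wnt11 with -0.76 (adjusted p = 0.0408), with 7 higher and 1 lower at an unadjusted p below 0.05 and a list median of 0.35. With median centring alone that median was 0.08 and the call of Wnt11 was lost. The summed level of smooth muscle markers ranged from 9411 to 19716 in Fgfrl1-/- and from 9502 to 21247 in wildtype, and that of skeletal muscle markers from 2406 to 4441 and from 2165 to 4395.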
